A study of Mus musculus with 32 samples.

Results

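The organic ion transporters described here are the members of 2 solute carrier families, Slc22 and Slco, which move charged metabolites, hormones, bile acids, toxins and drugs across the membranes of liver, kidney and barrier cells. Members were all genes whose symbol is Slc22a or Slco followed by the family's usual numbering in each of the 5 deposited tables. This gave 40 genes, 25 of Slc22 and 15 of Slco, of 55289 listed genes. 37 of them had tags in at least 1 table, and Slc22a12, Slc22a13 and Slco6b1 were listed at 0 in all 5.

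The study compared Ftsj1-deficient mice (Ftsj1_DF) with wild-type mice (WT), and FTSJ1 is a 2'-O-methyltransferase that acts on tRNA. All animals were male, 4 months old, fed ad libitum and given no special treatment, and all libraries carry the same batch label. Brain, heart, kidney and liver came from the same 6 mice, 3 Ftsj1_DF and 3 WT, and spleen came from 8 other mice, 4 Ftsj1_DF and 4 WT. Both genotypes drew on the same sets of brothers. How the deficiency was made, and whether it is restricted to some cells, is not given in the sources used here. Whole tissue was used. Degradome sequencing joins an adapter to poly(A) RNA that lacks a cap at its 5' end, so each short tag marks the end of a cleaved or decaying transcript. A gene's tag level therefore depends on how much of its RNA was present and on how much of that RNA was uncapped. In whole tissue, fewer cells of a type and less RNA per cell also cannot be told apart.

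Slc22 proteins fall into organic cation transporters, carnitine and ergothioneine transporters, and organic anion transporters. Those of the kidney proximal tubule take up organic anions and cations from blood on the way to urine. Slco proteins are organic anion transporting polypeptides, and those of hepatocytes take up bile acids, steroid conjugates, thyroid hormones and many drugs. Several mouse members, chiefly the rodent-specific organic anion transporter cluster and Slco1a1, are known to differ between the sexes in liver or kidney.

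The organ names of the deposited tables did not all match the transcripts in them. In the authors' deposited brain-named table, 12 hepatocyte markers took 24.2% of the summed means, with a mean normalized count of 16371100 for Alb, the serum albumin gene, and 410669 for Ttr, the transthyretin gene. There, 10 neuron markers summed to 19.1 per 1000000 of the table's sum (ppm), against 2065 ppm in the authors' deposited liver-named table. The brain-named table therefore held the hepatic profile, and the 2 tables are called brain-named and liver-named throughout. In the authors' deposited kidney table, proximal tubule markers summed to 10461 ppm, led by the endocytic receptor gene Lrp2 (mean 188969) and the oxygenase gene Miox (mean 129906), and cardiomyocyte markers made up 44651 ppm of the heart table. The authors' deposited spleen table held B cell markers at 12105 ppm, together with pancreatic acinar markers at 149030 ppm, which are 14.9% of its sum. The authors' deposited tables give means and comparisons but no value per library, so the depth and spread of each library are unknown here. Their summed means ran between 48536401 and 73405489. Ftsj1 had a log2 fold change of -2.84 ± 0.38 (SE; adjusted p = 1.75e-09) in the authors' deposited brain-named table and -1.56 ± 0.61 (adjusted p = 0.202) in the kidney table, and it was negative in all 5. The tables do not state which genotype is on top, so this sign was used to read a positive fold change as higher in Ftsj1_DF.

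The start regions of 4 members on which the results turn are given here, because the brain-named and kidney levels divide these genes most clearly or, for Slc22a26, because of its genotype difference. Each runs 5' to 3' on the gene's own strand, from 250 bases before to 50 bases after the annotated start, as RefSeq gives it on GRCm38.p6. Slc22a26 lies on the minus strand at chr19:7802618-7802917, Slc22a8 on the plus strand at chr19:8592932-8593231, Slc22a6 on the plus strand at chr19:8617746-8618045 and Slco1b2 on the plus strand at chr6:141629268-141629567. Capitals mark TTCNNNGAA, the site of STAT factors, in Slc22a26, and GTTAAT, a short element searched for in liver and kidney promoters, in the other 3.
Slc22a26: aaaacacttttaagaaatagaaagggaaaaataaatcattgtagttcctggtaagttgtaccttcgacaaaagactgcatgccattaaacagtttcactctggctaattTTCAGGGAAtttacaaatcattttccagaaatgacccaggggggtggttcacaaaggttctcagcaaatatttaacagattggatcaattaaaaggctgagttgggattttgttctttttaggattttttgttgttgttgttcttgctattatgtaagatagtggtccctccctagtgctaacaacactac
Slc22a8: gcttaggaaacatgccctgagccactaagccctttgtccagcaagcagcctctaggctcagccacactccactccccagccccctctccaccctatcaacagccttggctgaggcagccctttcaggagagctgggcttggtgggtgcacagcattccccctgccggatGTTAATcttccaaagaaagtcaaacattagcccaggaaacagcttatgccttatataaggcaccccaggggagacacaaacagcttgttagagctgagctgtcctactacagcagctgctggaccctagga
Slc22a6: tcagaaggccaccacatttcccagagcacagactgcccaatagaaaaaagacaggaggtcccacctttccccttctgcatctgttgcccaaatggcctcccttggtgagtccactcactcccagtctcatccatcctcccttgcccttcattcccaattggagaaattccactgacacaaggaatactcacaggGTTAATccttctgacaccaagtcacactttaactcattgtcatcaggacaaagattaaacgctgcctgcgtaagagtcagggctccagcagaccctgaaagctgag
Slco1b2: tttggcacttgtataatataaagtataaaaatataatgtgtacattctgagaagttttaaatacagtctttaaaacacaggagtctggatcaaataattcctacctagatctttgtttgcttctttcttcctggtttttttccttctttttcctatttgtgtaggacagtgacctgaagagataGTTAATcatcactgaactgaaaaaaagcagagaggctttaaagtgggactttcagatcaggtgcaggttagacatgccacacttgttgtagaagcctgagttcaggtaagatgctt

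Slco1b2 also holds a TTCNNNGAA match, which is left in lower case. The matches in capitals begin 141 bases before the start in Slc22a26, 81 in Slc22a8, 56 in Slc22a6 and 66 in Slco1b2. Searched on both strands, GTTAAT was present in 4 of 40 promoter entries of the members (10%) and in 2332 of all 32851 entries of the same length (7.10%). TTCNNNGAA, which reads the same on both strands, was present in 8 of 40 member entries (20%) and in 2726 of all entries (8.30%). The entries cover 35 of the 40 members. A match in this window is a description of its letters and not evidence of binding.

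The members differed in which table held their highest level. Of the 37 members with tags, 20 were highest in the kidney table, 7 in the brain-named, 6 in the liver-named, 2 in the heart and 2 in the spleen table. Under other scalings these counts were 19 or 20 for kidney, 7 to 10 for brain-named, 3 to 7 for liver-named, 1 to 4 for heart and 0 to 2 for spleen. The same count was not taken over all genes, so the background share of each table is not known here. Between the tables compared here, in ppm, the brain-named level was the higher for 11 members and the kidney level for 26. The difference was at least 10-fold for 3 and 13 of them. These counts, and the ratios between the brain-named and kidney tables given below, were taken in ppm only. With no scaling or with median ratio scaling, every kidney level is lower relative to the brain-named one, so the counts and ratios depend on the scaling. The members summed to 1006 ppm (brain-named) and 5007 ppm (kidney). The tables were normalized separately and carry no spread of the mean, so these levels are a description with no test. Levels of different genes are not set against each other, since the tables give no transcript length.

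**Figure D1:**
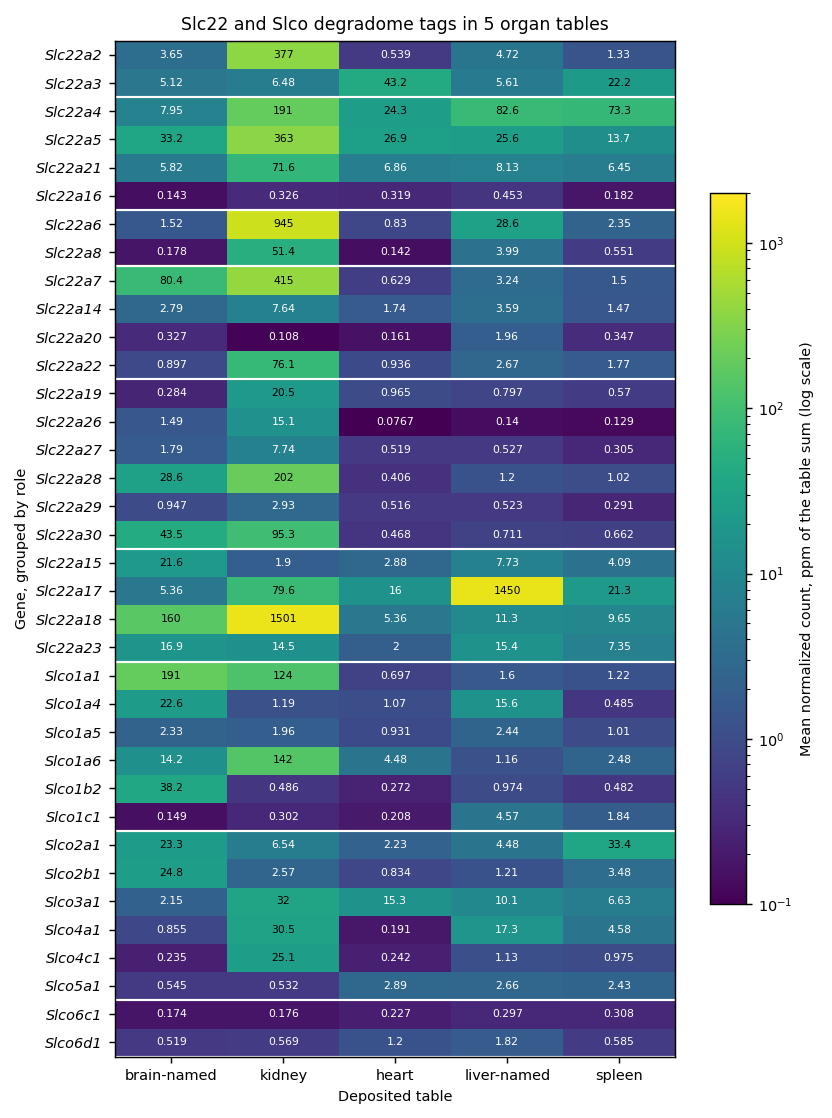
Level of 36 of the 37 members with tags in the 5 tables, as mean normalized count in ppm of the table's sum; rows are genes grouped by role, columns are tables, and colour runs on a log scale. Most members have their highest value in the kidney column, Slco1b2 has it in the brain-named column (38.2) and Slc22a17 in the liver-named column (1450).

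Of the organic cation transporters, Slc22a2 and Slc22a3 had their highest levels in different tables. Slc22a2, a carrier on the basolateral side of the proximal tubule, reached 3.65 ppm (brain-named), 377 (kidney), 0.539 (heart), 4.72 (liver-named) and 1.33 (spleen). Slc22a3, a carrier of monoamines outside neurons, was highest in the heart table at 43.2 ppm, next to 22.2 in the spleen table. Both genes lie near each other in the RefSeq gene order, so this pair of neighbours did not share its highest table. Other neighbours did: Slc22a4, Slc22a5 and Slc22a21, on chromosome 11, were all highest in the kidney table.

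The renal organic anion exchangers had the highest ratios of kidney to brain-named level. Slc22a6, which takes up para-aminohippurate and many drugs from blood, stood at 1.52 ppm (brain-named) and 945 (kidney), a kidney level 622 times as high in ppm. The authors' deposited means of Slc22a6 before this scaling were 112 (brain-named) and 45859 (kidney), a smaller ratio. It also reached 28.6 ppm in the liver-named table. Slc22a8, the second exchanger of the basolateral membrane, stood at 0.178 ppm in the brain-named and 51.4 in the kidney table, 288 times as high in ppm. Slc22a7, an organic anion transporter of liver and kidney, was high in both, at 80.4 ppm in the brain-named and 415 in the kidney table. Slc22a22, a prostaglandin-specific carrier of mouse kidney, stood at 0.897 and 76.1 ppm in the brain-named and kidney tables.

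The carnitine and ergothioneine transporters had tags in all 5 tables, and Slc22a4, Slc22a5 and Slc22a21 were highest in the kidney table. Slc22a5, the high-affinity carnitine carrier, ranged between 13.7 ppm in the spleen and 363 in the kidney table, with 33.2 in the brain-named table. Slc22a4, which carries ergothioneine, stood at 7.95 ppm (brain-named), 191 (kidney), 24.3 (heart), 82.6 (liver-named) and 73.3 (spleen). Slc22a21 was highest in the kidney table at 71.6 ppm, with between 5.82 and 8.13 elsewhere. Slc22a16, a carnitine carrier known from human testis, stayed under 1 ppm in all 5 tables.

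The rodent organic anion transporter cluster, 6 genes beside Slc22a6 and Slc22a8 on chromosome 19, was highest in the kidney table for each member. Slc22a28 stood at 28.6 ppm in the brain-named and 202 in the kidney table, and Slc22a30 at 43.5 and 95.3. Slc22a26 stood at 1.49 ppm in the brain-named and 15.1 in the kidney table, and at or below 0.14 in the other 3. With median ratio scaling in place of the table sum, the highest table of Slc22a30 became the brain-named one. The members are close copies in places, and how the authors counted short tags that match several copies is not given in the sources used here, so tags could be split among them.

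The Slco1 group included the members most skewed towards the hepatic table. Slco1b2, a hepatocyte carrier of bile acids and bilirubin conjugates, stood at 38.2 ppm (brain-named) and 0.486 (kidney), a brain-named level 78.7 times as high. Slco1a4, found in hepatocytes and at the blood-brain barrier, stood at 22.6 ppm (brain-named), 1.19 (kidney) and 15.6 (liver-named). Slco1a1, abundant in male mouse liver and kidney, stood at 191 and 124 ppm in the brain-named and kidney tables. Slco1c1, the thyroxine carrier of brain vessels and astrocytes, was highest in the liver-named table at 4.57 ppm. Slco1a6 was highest in the kidney table at 142 ppm. These 5 genes and Slco1a5 are neighbours in the RefSeq gene order and between them had their highest levels in 3 different tables.

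The remaining members were spread over all tables. Slc22a17, a receptor for lipocalin-2, had 1450 ppm in the liver-named table but 5.36 in its brain-named counterpart. Slc22a18, an imprinted gene of unsettled substrate, stood at 160 ppm (brain-named) and 1501 (kidney). Slco2a1, the prostaglandin carrier, was highest in the spleen table at 33.4 ppm and next in the brain-named table at 23.3; without scaling, and under median ratio scaling, the brain-named table came first. Slco4c1, a carrier of the proximal tubule's basolateral side, stood at 0.235 ppm in the brain-named and 25.1 in the kidney table. Slc22a12, the renal urate exchanger, and Slc22a13 were listed at 0 in the kidney table too. Slc22a13's neighbours Slc22a13b and Oxsr1 were likewise listed at 0 in every table, as were 1456 of 21218 genes that RefSeq marks as protein-coding (6.86%). A listed 0 gives no level here.

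**Figure D2:**
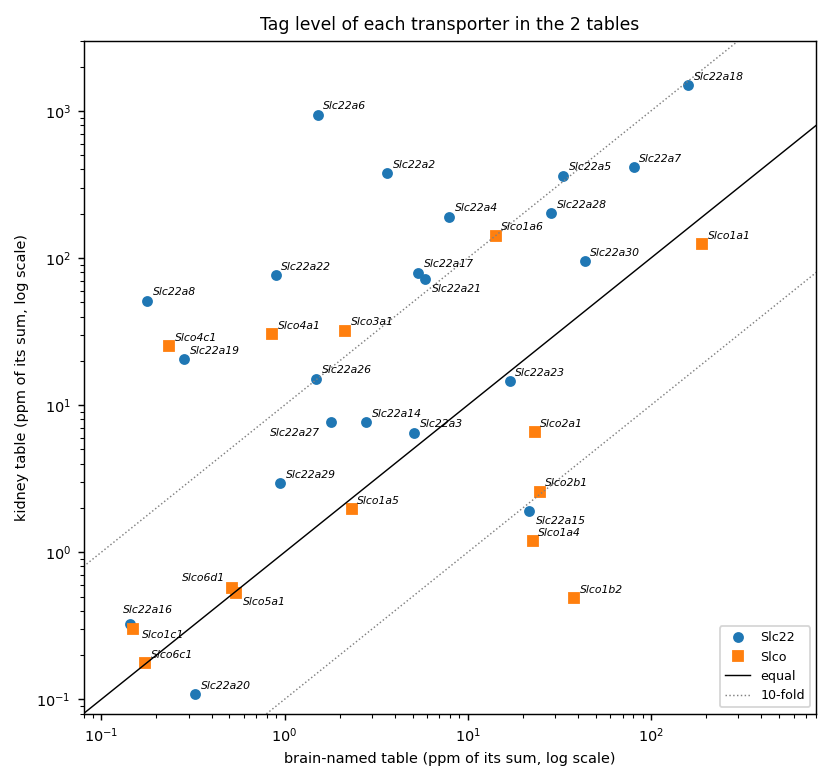
Level of 36 members in the brain-named table (x axis) and in the kidney table (y axis), both as mean normalized count in ppm of the table's sum on log scales; circles are Slc22 genes, squares are Slco genes, the solid line marks equal levels and the dotted lines mark 10-fold. Slc22a6, Slc22a8 and Slc22a2 lie far above the upper dotted line, and Slco1b2, Slco1a4 and Slc22a15 lie below the lower one.

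In the brain-named table, which held the hepatic profile, Slc22a26 was the transporter that rose in Ftsj1_DF. This gene of the rodent organic anion transporter cluster is known for a higher level in female than in male mouse liver. Its mean normalized count was 109 in the authors' deposited table. With equal groups and genotype as the only term of the model, that mean and the deposited fold change imply 198 in Ftsj1_DF and 20.1 in WT (n = 3 each), with no value per mouse to show whether the groups overlap. The authors' deposited log2 fold change was 3.30 ± 0.65 (SE; 95% interval 2.03 to 4.57; DESeq2 adjusted p = 9.07e-04), which is 9.86-fold, between 4.08-fold and 23.8-fold. It was the 1 that passed of 32 members with an adjusted p in the authors' deposited brain-named table, where 0.414% of all tested genes passed. By direction, 1 member rose and 0 fell, against 0.335% and 0.0795% of all tested genes. At an unadjusted p of 0.05, 3 members passed, against 10.8% of all genes.

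Markers of other cell types moved in the same table. All 9 tested pancreatic acinar markers had positive fold changes in the authors' deposited brain-named table, with a median log2 fold change of 3.85, and 3 passed the 5% threshold. These were the amylase gene Amy2a5 (2.63 ± 0.69), the lipase-related gene Pnliprp1 (3.11 ± 0.76) and the trypsin inhibitor gene Spink1 (2.97 ± 0.73). Over the list, the implied means summed to 458491 in Ftsj1_DF and 33280 in WT. Slc22a26 had a mean of 6.31, or 0.129 ppm, in the authors' deposited spleen table, where acinar markers took 14.9% of the sum. In the authors' deposited brain-named table, proximal tubule markers were positive for 6 of 10 genes, with a median of 0.42 and 0 passing either adjusted p or an unadjusted p of 0.05 by DESeq2, and implied sums of 15738 in Ftsj1_DF and 19296 in WT. The highest means of that list were those of Aqp1 (9392) and Pdzk1 (5607), whereas Lrp2 and Miox led it in the kidney table. Distal nephron markers were positive for 6 of 6 genes in the brain-named table, with a median of 0.25 and 0 passing either threshold by DESeq2. Their implied means summed to 854 in Ftsj1_DF and 689 in WT in the brain-named table. The adrenal marker Cyp21a1 fell there by 2.37 ± 0.48 on the log2 scale. Hepatocyte markers were positive for 11 of 12 genes in the authors' deposited brain-named table, with a median of 0.40, 0 passing by DESeq2 and 2 at an unadjusted p under 0.05. Their implied means summed to 22364640 in Ftsj1_DF and 13232309 in WT. The part of these tissues in the Slc22a26 result was not tested.

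The neighbours of Slc22a26 did not pass in the brain-named table. The authors' deposited log2 fold changes were 0.74 ± 0.50 for Slc22a27, 0.17 ± 0.43 for Slc22a30, 0.13 ± 0.64 for Slc22a19, -0.21 ± 0.45 for Slc22a28, -0.34 ± 0.46 for Slc22a29 and 0.69 ± 0.60 for Slc22a6. Their 95% intervals each included 0. The implied means of Slc22a28 were 1942 in Ftsj1_DF and 2250 in WT, and those of Slc22a30 were 3375 and 3010.

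Slc22a7 had the next lowest p of the members in the brain-named table. Its implied means were 3520 in Ftsj1_DF and 8286 in WT, from a deposited mean of 5903. The authors' deposited log2 fold change was -1.23 ± 0.35 (95% interval -1.92 to -0.55), with an adjusted p of 0.0744 by DESeq2, which misses 5% and passes 10%. Slc22a21, the carnitine carrier, had implied means of 554 in Ftsj1_DF and 301 in WT and a deposited log2 fold change of 0.88 ± 0.36 with an adjusted p of 0.293 by DESeq2.

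Other than Slc22a7, the 8 members with the highest tag counts in the brain-named table had intervals that included 0. Slco1a1 had a log2 fold change of -0.06 ± 0.41 and Slc22a18 one of 0.42 ± 0.47 in the authors' deposited brain-named table. Slco1b2 had implied means of 3442 in Ftsj1_DF and 2169 in WT, with a deposited log2 fold change of 0.67 ± 0.35 (95% interval -0.02 to 1.35). Slc22a5 had 0.46 ± 0.31 in the authors' deposited table. By role, positive estimates numbered 1 of 3 for organic cation transporters, 2 of 3 for carnitine and ergothioneine transporters, 1 of 1 for renal exchangers, 0 of 4 for urate and other organic anion transporters and 4 of 6 for the rodent cluster. They numbered 2 of 4 for Slc22 members of unsettled substrate, 3 of 5 for Slco1, 0 of 5 for Slco2 to Slco5 and 0 of 1 for Slco6. Over the 32 tested members the median log2 fold change was -0.08, with 13 positive and 19 negative, against a median of 0.04 and 53.3% positive over all tested genes.

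**Figure D3:**
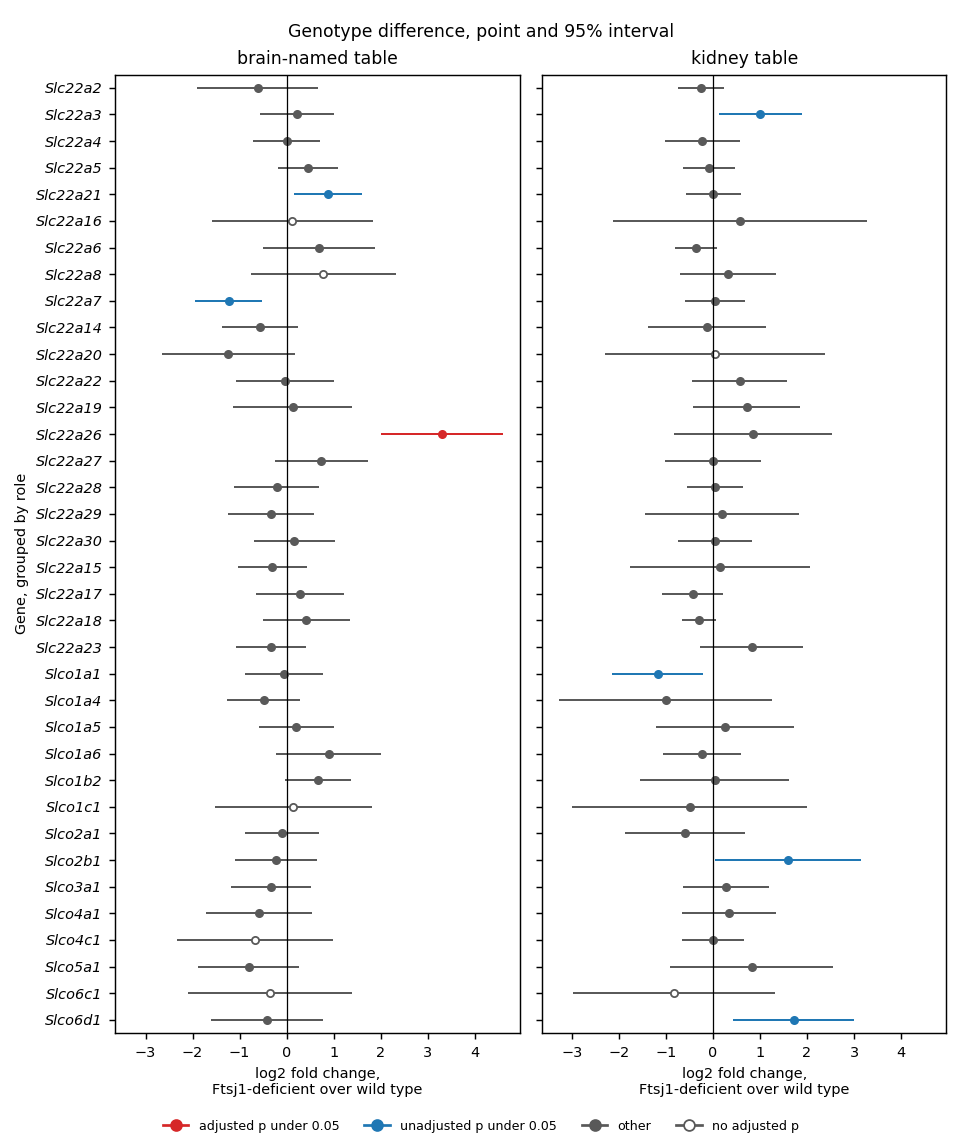
Authors' deposited log2 fold change of 36 members, Ftsj1-deficient over wild type, with its 95% interval, in the brain-named table (left) and the kidney table (right); red marks an adjusted p under 0.05, blue an unadjusted p under 0.05, and open points genes with no adjusted p. Slc22a26 in the brain-named panel (3.30) is the only red point, and Slc22a18 and Slc22a6 have the narrowest intervals in the kidney panel.

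In the kidney table, no transporter passed the 5% threshold. Of 35 members with an adjusted p in the authors' deposited kidney table, 0 passed by DESeq2 and 4 had an unadjusted p under 0.05, against 2.07% and 11.9% of all tested genes. The members' median log2 fold change was 0.04, with 22 positive and 13 negative, against a median of -0.01 over all tested genes.

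Slc22a18 and Slc22a6, the members with the highest tag counts in kidney, had the smallest standard errors of the 35 tested. Slc22a18 had implied means of 65123 in Ftsj1_DF and 80632 in WT, with a log2 fold change of -0.31 ± 0.17 (95% interval -0.65 to 0.03) in the authors' deposited kidney table. Slc22a6 had implied means of 40241 in Ftsj1_DF and 51477 in WT, with -0.36 ± 0.22 (95% interval -0.78 to 0.07) in the same deposited table. Slc22a2 had -0.26 ± 0.24, Slc22a5 -0.09 ± 0.27, Slc22a7 0.03 ± 0.32 and Slc22a28 0.04 ± 0.29 in the authors' deposited table. Slc22a4 had -0.23 ± 0.39 and Slc22a8 0.31 ± 0.51 there. At these standard errors a log2 difference of 0.57 would have been needed for Slc22a18 to pass, 0.71 for Slc22a6, 0.78 for Slc22a2 and 1.03 for Slc22a7.

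The 4 members with an unadjusted p under 0.05 in the kidney table were of different roles. Slco1a1, known to depend on androgen in mouse kidney, had implied means of 3676 in Ftsj1_DF and 8327 in WT, with a log2 fold change of -1.18 ± 0.48 and an adjusted p of 0.231 by DESeq2 in the authors' deposited table. Slc22a3 had implied means of 420 in Ftsj1_DF and 209 in WT, with 1.01 ± 0.44 and an adjusted p of 0.293 by DESeq2 in the authors' deposited table. Slco2b1, which carries steroid sulfates, had implied means of 188 in Ftsj1_DF and 62.3 in WT, with 1.59 ± 0.78 and an adjusted p of 0.387 by DESeq2 in the authors' deposited table. Slco6d1, of a testis subfamily, had implied means of 42.3 in Ftsj1_DF and 12.9 in WT, with 1.72 ± 0.65 and an adjusted p of 0.166 by DESeq2 in the authors' deposited table. The adrenal marker Star, which brings cholesterol to steroid synthesis, fell in the authors' deposited kidney table, with a log2 fold change of -4.65 ± 1.03, and all 3 tested adrenal markers were negative there. The list's implied means, over 8 genes, summed to 422 in Ftsj1_DF and 5583 in WT, and its part in these estimates was not tested. That sum also covers genes without an adjusted p. Among them is Cyp21a1, with implied means of 1.90 in Ftsj1_DF and 1149 in WT but no p-value in the kidney table. Its means are therefore not a tested difference, and whether its WT mean rests on a single library cannot be seen.

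Slc22a26 was more abundant in the kidney table, with a mean of 735, than in the brain-named table. Its implied kidney means were 944 in Ftsj1_DF and 525 in WT, and the authors' deposited log2 fold change was 0.85 ± 0.85 (95% interval -0.81 to 2.51; DESeq2 adjusted p = 0.807). All 6 genes of its cluster had positive estimates in the kidney table, of which 0 passed the adjusted or the unadjusted threshold by DESeq2.

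**Figure D4:**
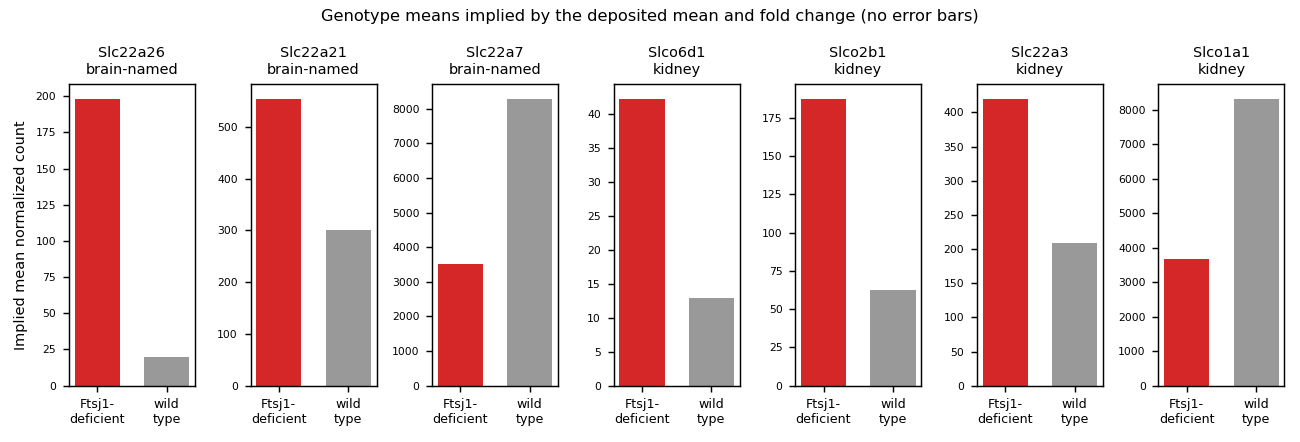
Mean normalized count in Ftsj1-deficient (left bar) and wild-type (right bar) mice implied by the authors' deposited mean and fold change, for the 7 members with an unadjusted p under 0.05 in the brain-named (3) or kidney (4) table, each panel on its own scale; bars start at 0 and have no error bars because the tables hold no value per library. Slc22a26 stands at 198 in Ftsj1_DF against 20.1 in WT, and Slc22a7 at 3520 in Ftsj1_DF against 8286 in WT, both in the brain-named table.

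The genotype fold change itself was then compared between the brain-named and kidney tables. Of 31 members tested in both, 0 differed after Benjamini-Hochberg adjustment over 16656 genes, where 1.3% of all genes passed, and 4 had an unadjusted p under 0.05, against 12.1% of all genes. The brain-named minus kidney difference for Slc22a26 was 2.46 on the log2 scale (SE 1.07; 95% interval 0.36 to 4.55; adjusted p = 0.281), from a z test on the authors' deposited values. It was -1.27 for Slc22a7 (SE 0.47; 95% interval -2.19 to -0.35; adjusted p = 0.167, z test on the authors' deposited values). Slc22a26 therefore passed in the brain-named table and not in the kidney table, but the difference between them did not pass after adjustment. Its unadjusted p was 0.0214 by the z test. The z test takes the 2 tables as independent although both organs came from the same mice, and with an assumed correlation of 0.3 between the estimates the difference for Slc22a7 passed at an adjusted p of 0.0338.

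In the heart, liver-named and spleen tables no member passed. The authors' deposited heart table tested 34 members, of which 0 passed by DESeq2 against 1.19% of all genes, and 2 had an unadjusted p under 0.05 against 10.6%. The authors' deposited liver-named table likewise tested 34, of which 0 passed by DESeq2 against 0.203%, and 3 had an unadjusted p under 0.05 against 10.4%. All 37 were tested in the authors' deposited spleen table, where 0 passed by DESeq2 against 0.217%, and 3 had an unadjusted p under 0.05 against 5.97%.

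The lowest p of these tables was that of Slco5a1 in heart, a member of unsettled substrate. Its implied means were 84.7 in Ftsj1_DF and 207 in WT, with a log2 fold change of -1.29 ± 0.39 and an adjusted p of 0.0726 by DESeq2 in the authors' deposited heart table. The same gene in the authors' deposited spleen table had implied means of 55.1 in Ftsj1_DF and 181 in WT, with -1.72 ± 0.78 and an adjusted p of 0.706 by DESeq2. Slc22a4 had implied means of 7171 in Ftsj1_DF and 4081 in WT in the liver-named table, with 0.81 ± 0.40 and an adjusted p of 0.452 by DESeq2 in the authors' deposited table. Slc22a20, an odorant organic anion transporter of olfactory epithelium, had no p-value in the liver-named table, with implied means of 28.2 in Ftsj1_DF and 239 in WT. Without a p-value the means of Slc22a20 are not a tested difference, and no value per mouse shows whether they rest on a single library. Over the 34 tested members in heart, 9 estimates were positive and 25 negative, with a median of -0.29, against a median of 0.01 and 51.1% positive over all tested genes. Estimates in the authors' deposited heart table were positive for 0 of 11 hepatocyte markers (median -0.69), 0 of 11 acinar markers (median -0.51), 1 of 9 neuron markers (median -0.39) and 3 of 10 proximal tubule markers (median -0.32). They were positive for 3 of 5 cardiomyocyte (median 0.001), 3 of 5 brain endothelial (0.01) and 2 of 4 adrenal markers (0.04). The other lists had 2 of 6 for distal nephron (-0.18), 0 of 4 for choroid plexus (-0.84), 1 of 6 for adipocyte (-1.32) and 1 of 3 for B cell markers (-2.28). The B cell gene Ighm passed 5% in heart (-2.28 ± 0.66, adjusted p = 0.0481 by DESeq2). The part of these cell types in the members' estimates was not tested.

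**Figure D5:**
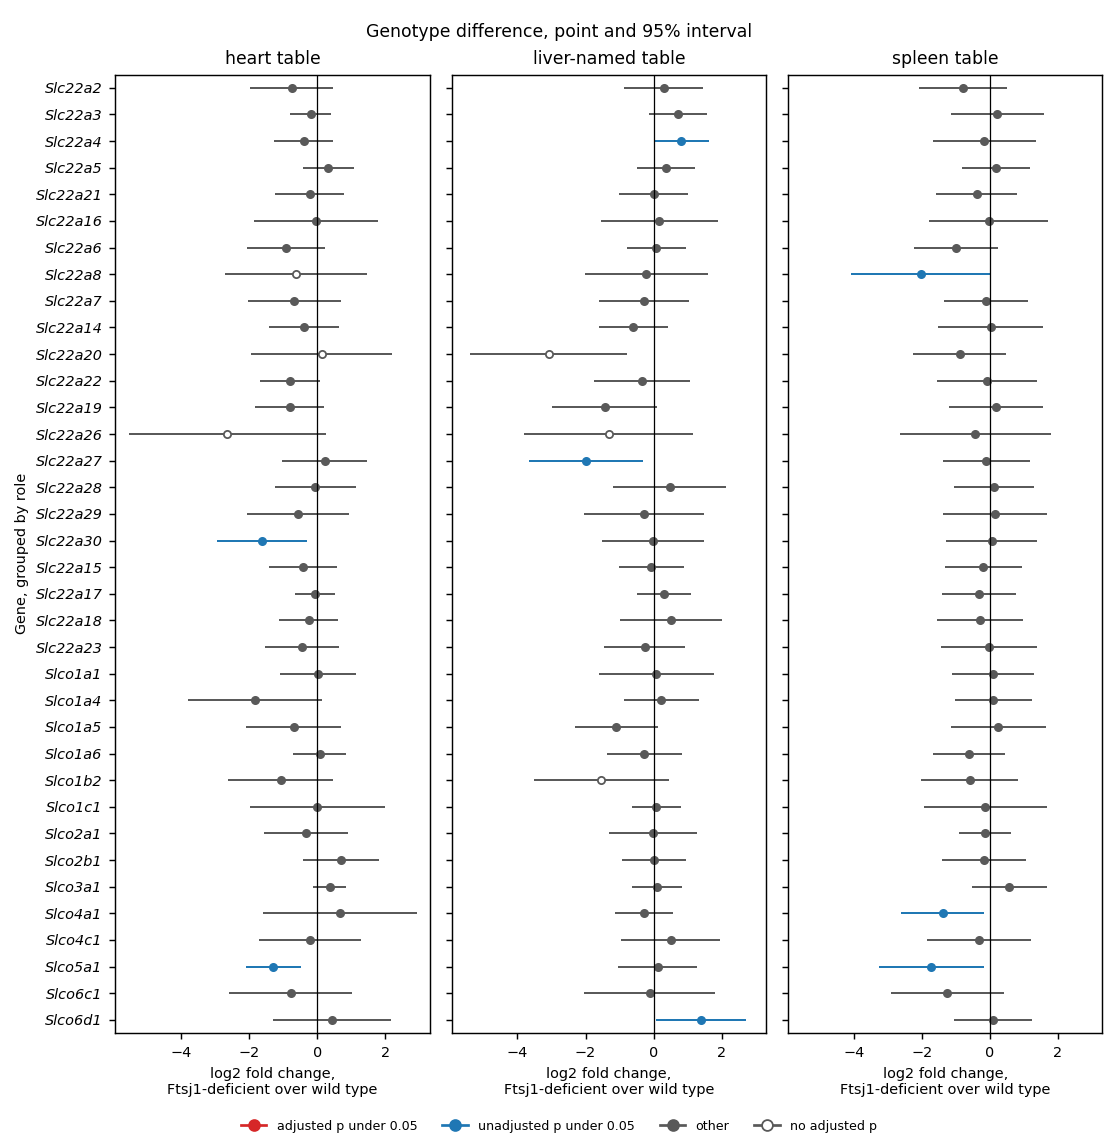
Authors' deposited log2 fold change of 36 members, Ftsj1-deficient over wild type, with its 95% interval, in the heart, liver-named and spleen tables; blue marks an unadjusted p under 0.05 and open points genes with no adjusted p. No point is red, and Slco5a1 is blue in both the heart and the spleen panel.

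Genes that work with these transporters were given the same reading from lists made for this purpose. Of 25 partner transporters, which hold the bile acid, multidrug and urate carriers of the apical and basolateral membranes, 24 were tested in the authors' deposited brain-named table and 25 in the kidney table. None passed by DESeq2 in either, and 5 and 3 had an unadjusted p under 0.05; over all tested genes the unadjusted share was 10.8% (brain-named) and 11.9% (kidney), and the adjusted share 0.414% and 2.07%, which are also the background of both lists that follow. Their median log2 fold changes were 0.13 and 0.06 in the authors' deposited brain-named and kidney tables. Of 18 transcription regulators of these genes, 18 had an adjusted p in the brain-named and 16 in the kidney comparison, with 0 passing in either by DESeq2, 1 and 2 at an unadjusted p under 0.05, and medians of -0.07 and -0.08 in the authors' deposited tables. Of the scaffold and partner proteins, 7 were tested in each table, 0 passed by DESeq2, 0 and 1 had an unadjusted p under 0.05, and the authors' deposited medians were -0.16 and 0.20.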

How the data were processed

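Degradome tags of 32 libraries were deposited as 5 comparison tables, 1 per organ. Per the submitters' processing notes, featureCounts of Subread 2.0.3, DESeq2 and the build GRCm39 were used; the model, filters and DESeq2 version are not given in the sources used here. Per the file headers, each deposited table holds a mean signal per gene (counts divided by size factors, averaged over the organ's libraries), a log2 fold change with its standard error, a score (the fold change over its error, checked in every row), and a p-value with its adjusted p-value. They hold no value per library, so no new fit was made, and the planned test on counts was not run. P-values measure the spread between these mice, some of which are brothers.

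The authors' adjusted p was read at 5% over each whole table. Computed here, with Python 3.11.15, pandas 2.3.3, numpy 2.4.6 and scipy 1.17.1 (figures with matplotlib 3.10.9), were 95% intervals, levels (the mean over the table's sum, in ppm), implied genotype means, and z tests of differences, which were tested on simulated data. The unnamed row of each table, at most 5.3e-06% of its sum, was left out. Members matched RefSeq symbols in 40 of 40 cases; promoter entries are on GRCm38.p6, not the files' build. Members, marker lists and gene lists were chosen with earlier results of these data known. Described with values are Ftsj1, every member past 5% in any table, members with an unadjusted p under 0.05 in the brain-named or kidney table, the 8 highest members of each, and members whose difference passed; others are given as ranges, counts or levels. The values of 1 member, which is in the counts, are not reported here. Slco5a1, Slc22a4, Slc22a27, Slco6d1 and Slc22a20 in the other 3 tables, and the markers of other cell types, were named after their values were seen. Alternatives were the false discovery rate, the set of genes adjusted over, a minimum mean (20), a minimum log2 change (1), a rescaled statistic, a correlation between estimates and other scalings of levels.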

Additional observations from a re-analysis of the deposited data

How the results depend on the processing

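The rise of Slc22a26 in the brain-named table held under every alternative run, with adjusted p between 9.07e-04 and 0.0212. At a false discovery rate of 10%, members passing became 2 in the brain-named table (with Slc22a7; 155 genes in all, 73 at 5%) and 1 in the heart table (Slco5a1; 381 genes in all, 236 at 5%). Rescaling the statistic by its robust spread left 9 genes in all in the brain-named table. With a correlation of 0.3 between the estimates, 1 member differed between the brain-named and kidney tables and 829 genes in all did, against 216. Without scaling, 1 member was highest in heart and 0 in spleen; under median ratio scaling, 4 were highest in heart, 3 in the liver-named table and 1 in spleen. The 7 members whose highest table depended on the scaling had a highest level between 1.04 and 2.19 times the next. Of 91 alternative values, 82 kept their side of the threshold or stayed within 1.5 times. Not all of them could change: the adjusted p of a single gene has the same value at any false discovery rate or minimum log2 change. The count of 82 is therefore not a measure of robustness. No library could be left out, and no paired analysis was possible because the deposited tables hold no value per library. Depth per library is unknown, and the standard error sets the limit: its median over tested members was 0.43 in the brain-named and 0.50 in the kidney table on the log2 scale, with a highest value of 0.71 and 1.37.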

Other observations

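Genes known to differ between male and female mouse liver, 2 lists that hold some members themselves, were read in the same way. Of 17 female-biased liver genes, 13 were tested in the authors' deposited brain-named table: 10 had positive estimates, the median log2 fold change was 0.67, 4 had an unadjusted p under 0.05, and Slc22a26, which is on the list, was the 1 that passed. Of 12 male-biased liver genes, which include Slco1a1, 11 were tested there, 2 were positive, the median was -0.62, 3 had an unadjusted p under 0.05 and 0 passed by DESeq2. In the authors' deposited kidney table the female-biased list had 6 of 8 tested estimates positive with a median of 0.31, and the male-biased list 4 of 10 with a median of -0.23; 0 passed in either by DESeq2, with 0 and 2 at an unadjusted p under 0.05. Over all tested genes of the brain-named table the median was 0.04, 53.3% were positive, 10.8% had an unadjusted p under 0.05 and 0.414% passed; for the kidney table these were -0.01, 49.1%, 11.9% and 2.07%. Without the transporters themselves, the female-biased list in the authors' deposited brain-named table had 8 of 10 tested estimates positive, a median of 0.57, 3 at an unadjusted p under 0.05 and 0 passing by DESeq2, and the male-biased list had 2 of 10, -0.63, 3 and 0. In the authors' deposited kidney table, without the transporters, the female-biased list had 3 of 5 positive with a median of 0.44, and the male-biased list 4 of 9 with a median of -0.09. All mice were male.

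Members with tags but no adjusted p numbered 5 in the authors' deposited brain-named table (Slc22a16, Slc22a8, Slco1c1, Slco4c1 and Slco6c1), 2 in the kidney table (Slc22a20 and Slco6c1), 3 in the heart table and 0 in the spleen table; the liver-named table had 1, and 2 further members had no p-value. Among the transcription regulators, Foxa2 had a log2 fold change of -6.19 ± 1.21 (DESeq2 adjusted p = 8.35e-04) in the authors' deposited spleen table; it was named after its values were seen.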
